A study of Saccharomyces cerevisiae with 94 samples.

Results

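The late stage of the Mex67-AA chase comprised the libraries taken 30 min (replicates A and C) or 20 min (replicate B) after rapamycin. Each was set against the library of the same replicate taken at 16 min (A and C) or 14 min (B), called the reference. ENO2 was dropped, and a transcript was followed in a replicate when it had at least 10 reads in both libraries, which gave 2077, 2752 and 1164 transcripts in A, B and C. In all 6 libraries this held for 1160 of 7181 transcripts with a read in any of them, and tests across transcripts were run on those 1160. By the annotation of the files they were 1135 mRNAs, 9 rRNA features, 8 snRNA or snoRNA host transcripts, 2 CUTs and 2 XUTs (classes of unstable noncoding RNA) and 4 others, and they took 95.7% of the reads of these libraries.

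The study sequenced native budding yeast RNA on Nanopore to follow deadenylation and decay, and the 6 libraries are among 17 of the Mex67-AA chase used here and 94 samples of the series. Every library, the controls taken at 0 min included, came from the same W303 strain, which carries tor1-1, fpr1::NAT, RPL13-2xFKBP12::TRP1 and MEX67:FRB::kanMX6, so that no comparison of strains enters. Cells grew in YPDA at 25 °C. A library of replicate C taken later than 30 min was not analysed here. No late library without rapamycin was used here, so that time in the drug and the export block cannot be told apart.

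Mex67 is the receptor that takes mature mRNA through the nuclear pore. In Anchor-Away cells rapamycin ties FRB-tagged Mex67 to a ribosomal protein that leaves the nucleus, so that export stops while mRNA already in the cytoplasm goes on to be deadenylated, decapped and degraded. Transcripts held in the nucleus are mostly degraded there, and those that persist can carry unusually long pA-tails, known as hyperadenylation.

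Without ENO2, the 17 libraries held 188519 to 2184459 reads, and the 6 compared here 241941 (C at 16 min) to 1856715 (B at 14 min). Within a replicate the read number went from 1059907 to 1182791 in A, from 1856715 to 1459102 in B and from 241941 to 683728 in C. Replicate C stood apart in composition: ribosomal protein gene (RPG) mRNAs took 43.9% of its reads at 0 min, against 36.1% in A and 34.8% in B. No pair among 136 pairs of libraries held identical counts. Levels are library fractions in reads per 1000000, so that a change is relative to the other transcripts, and fewer cells and less RNA per cell cannot be told apart. The replicates are separate chases, and p-values measure the spread between them. Between the reference and late this spread includes the unequal interval, 14 min in A and C and 6 min in B.

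MEX67 itself encodes the depleted protein, but Anchor-Away moves the protein and leaves the gene in place, so that its mRNA does not check the depletion. The gene carries the FRB tag and the kanMX6 marker in this strain, and their part in its level and tail was not tested. MEX67 had 12, 17 and 5 reads at 0 min in replicates A, B and C. Its level was 5.49, 15.2 and 10.7 reads per 1000000 at 0 min in replicates A, B and C, 48.1, 31.2 and 119.9 at the reference, and 238, 95.9 and 187 late. The late level was above the reference in every replicate, although the reference of C (119.9) exceeded the late level of B (95.9), and both later stages lay above every value at 0 min. MEX67 rose by 1.59 ± 0.31 on the log2 scale (SE; edgeR quasi-likelihood test, adjusted p = 0.0473), with 29 to 58 reads at the reference and 128 to 281 late. Without replicate A its adjusted p was 0.389. Its long tails were already present at the reference, where the upper tail, the tail length averaged over 5 percentiles from the 75th to the 95th, was 114, 116 and 128 adenosines, against 60.6, 56.5 and 45.2 at 0 min. Late it was 111, 120.4 and 106 adenosines.

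The distribution of pA-tails widened late, with the lower and middle quantiles shorter and the 95th percentile longer. Over the 1160 transcripts, the median 95th percentile went from 41.5 to 52.6 adenosines in A, from 45.0 to 46.2 in B and from 43.0 to 60.2 in C. At 0 min it had been 64, 61.7 and 61.5 adenosines, so that the late value stayed below the control in every replicate. The within-replicate changes were 11.1, 1.20 and 17.2 adenosines, with a mean of 9.83 ± 8.06 (n = 3, SD; two-sided exact permutation of signs, p = 0.25, which is the lowest reachable with 3 differences). Replicate B, with the shortest interval, 6 min against 14 min in A and C, had the smallest change.

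The other quantiles moved the opposite way or differed in sign between replicates. The median tail of the median transcript went from 20.0 to 18.0 adenosines in A, from 21.0 to 20.0 in B and from 19.0 to 17.0 in C. The 75th percentile changed by -3, -2 and -2 adenosines, and the 5th percentile by -1, -0.6 and -1.2 (p = 0.25 for each, exact permutation of signs). At the 90th percentile the changes were -0.5, -1.65 and 5.4 adenosines, so that only replicate C was longer there. The number of transcripts whose 95th percentile reached 100 adenosines went from 45 to 154 in A, from 34 to 70 in B and from 137 to 170 in C, of 1160 each. At 0 min these numbers were 2, 3 and 11. In C the number was already 116 at 8 min (438645 reads), against 19 in A at 8 min (188519 reads).

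**Figure D1:**
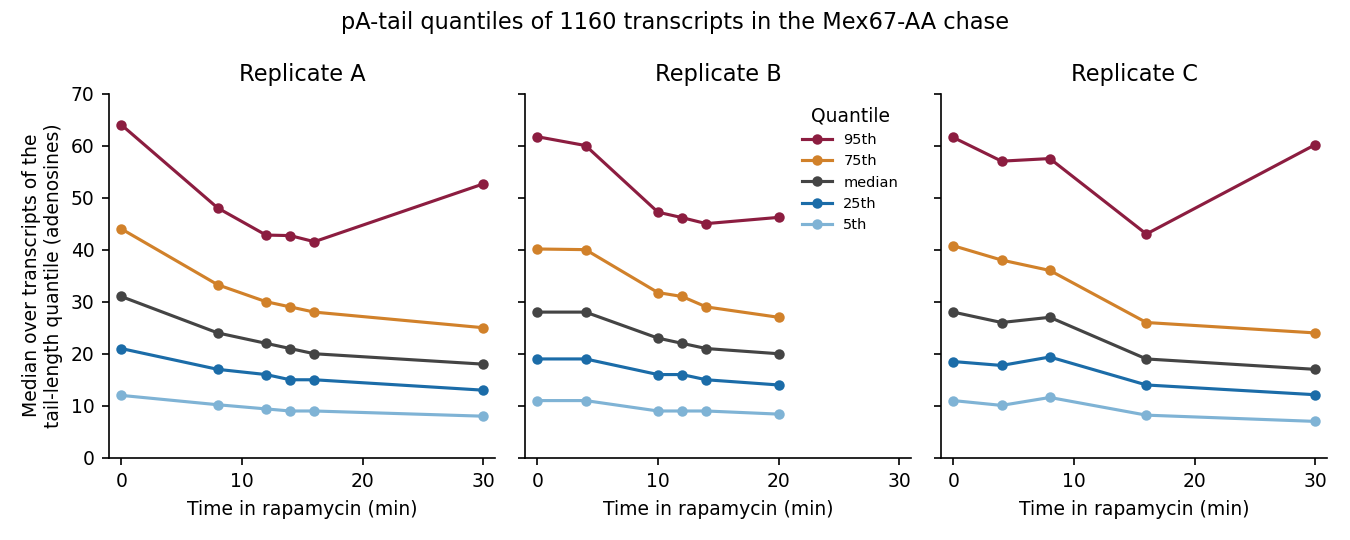
Median over 1160 transcripts of 5 percentiles (5th to 95th) of pA-tail length (adenosines) against time in rapamycin (min), one panel per replicate and one point per library. The 95th percentile is lowest at the reference and higher late (52.6, 46.2 and 60.2 adenosines), while the other 4 quantiles shown are lowest in the late library of each replicate.

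Over the shared 1160 transcripts the median upper tail changed by 0.3, -1.02 and 4.02 adenosines in A, B and C. When each replicate was taken with its own transcripts, it was longer late in all 3. It went from 54.6 adenosines at 0 min to 34.0 at the reference and 42.8 late in replicate A. Replicate B gave 52.5, 37.4 and 39.0 adenosines, and replicate C 49.5, 32.7 and 36.8. The mean late difference was 4.85 ± 3.66 adenosines (n = 3, SD; two-sided exact permutation of signs, p = 0.25). Of each replicate's transcripts, 58.3% were longer in A, 51.4% in B and 47.3% in C. Longer by at least 20 adenosines were 700 transcripts in A, 361 in B and 214 in C, and shorter by as much were 32, 48 and 36. The direction of the median depended on the transcripts counted: with at least 50 reads the mean difference was -1.47 adenosines, and weighted by reads it was -3.27. Transcripts just inside the minimum, with 10 or 11 reads in the smaller library, had median differences of 16.8, 6.17 and 12.8 adenosines in A, B and C, and those just outside, with 8 or 9 reads, 14.2, 4.22 and 4.67.

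The upper tail of single transcripts did not pass a test across transcripts. Of 1160 transcripts, limma called 0 longer and 0 shorter (0% of those tested in either direction; Benjamini-Hochberg at 0.05), with 275 at an unadjusted p under 0.05 and a median difference of -0.198 adenosines. The upper tail was longer in all 3 replicates for 255 transcripts (22%) and shorter in all 3 for 412 (35.5%). Per replicate, 47.2% of transcripts were longer in A, 36.8% in B and 47.2% in C.

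Direction went with transcript level. Among the 290 transcripts of lowest level (20.6 to 68.7 reads per 1000000), 28.6% were longer in all 3 replicates and 16.6% shorter in all 3. Among the 290 of highest level (429 to 56181 reads per 1000000), 8.97% were longer and 68.3% shorter. The sets between them gave 25.9% and 24.5% longer, and 23.8% and 33.4% shorter. Read number moved with level: the median of a transcript's smallest read count over the 6 libraries was 13 in the lowest set and 373 in the highest, and the part of read number in this pattern was not tested. Across transcripts, the differences of replicates A and B had a Spearman rho of 0.520, those of A and C 0.449 and those of B and C 0.242, as a description of 1160 transcripts that share libraries within a replicate.

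**Figure D2:**
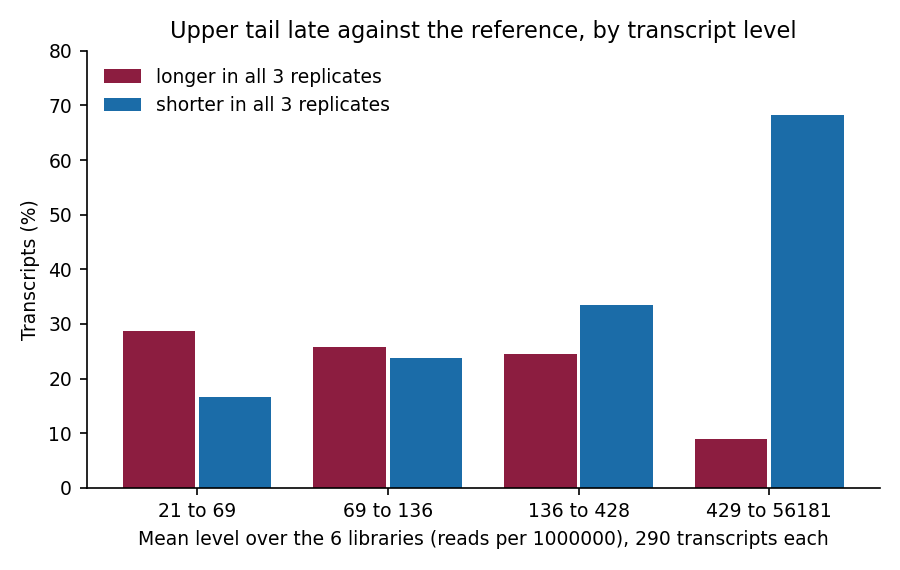
Percent of transcripts whose upper tail was longer (dark red) or shorter (blue) late than at the reference in all 3 replicates, for 4 sets of mean level over the 6 libraries (290 transcripts each, reads per 1000000 on the x axis). Longer falls from 28.6% to 8.97% and shorter climbs from 16.6% to 68.3% between the lowest and the highest set.

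Ribosomal protein mRNAs had shorter tails late in most members. The large ribosomal subunit list had 74 tested members, with a median upper tail of 31.8, 32.6 and 30.2 adenosines at the reference and 27.5, 31 and 26.5 late, and 60 of them were shorter in all 3 replicates, against 35.5% of all 1160 and 68.3% of the 290 of highest level. For the small subunit 47 of 54 were shorter in all 3, with a list median of -2.89 adenosines against -0.198 over all 1160. All 5 mRNAs of the ribosomal stalk, the acidic proteins that recruit elongation factors, were shorter in all 3. One of them, RPP0, had an upper tail of 35.0, 36.0 and 31.8 adenosines at the reference and 29.8, 33.6 and 27.6 late, a difference of -3.93 ± 0.722 (SE; limma, adjusted p = 0.209). The late values lay below the reference values within each replicate, although the groups overlapped. TEF2, which encodes elongation factor eEF1A, went from 32.6, 33.8 and 30.2 to 29.0, 31.6 and 27.4 adenosines (adjusted p = 0.209, limma).

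Several other lists had more members with a longer upper tail in all 3 replicates than with a shorter one, against 22% longer and 35.5% shorter of all 1160. Of 25 tested ribosome biogenesis mRNAs 12 were longer in all 3 replicates and 2 shorter, with a median difference of 16.0 adenosines. ARX1, whose product is a shuttling export factor of the large subunit precursor, had 57.4, 45.0 and 55.9 adenosines at the reference and 93.6, 71.6 and 94.0 late, with all late values above all reference values. CIC1, an assembly factor of the large subunit, had 36.9, 39.6 and 41.2 at the reference and 92.6, 42.4 and 105 late. Of 27 ergosterol and fatty acid synthesis mRNAs 10 were longer in all 3 and 7 shorter. Among 14 chaperone mRNAs 6 were longer and 1 shorter, with a median difference of 13.5 adenosines. Respiratory complexes had 6 longer and 2 shorter of 25, and methionine and sulfur assimilation 5 and 2 of 11. Mitochondrial ribosomal proteins had 3 and 0 of 3, and translation initiation factors 5 and 4 of 18. Histones had 2 and 0 of 8, with 8, 8 and 2 of them longer in A, B and C. Other non-ribosomal lists had more shorter members: amino acid synthesis had 6 longer and 13 shorter of 39, and glycolysis and fermentation 3 and 8 of 15. The proteasome had 5 and 8 of 24, translation elongation factors 1 and 4 of 8, and cell wall 4 and 5 of 18. Redox had 2 and 3 of 13, and mRNA export and 3′ end formation 1 and 2 of 12. The sets of level below the highest gave 24.5% to 28.6% longer and 16.6% to 33.4% shorter in all 3. The lists were not matched for level.

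ERG11, which encodes the lanosterol demethylase of ergosterol synthesis, had a late tail distribution unlike that at the reference at a similar level. Its upper tail was 42.9, 41.8 and 58.9 adenosines at the reference and 97.8, 63.5 and 101 late, a difference of 39.4 ± 7.11 (SE; limma, adjusted p = 0.209). Its median tail went from 17 to 64 adenosines in A and from 14 to 64 in C, but from 20 to 17 in B. All late upper tails were above all reference values, while the level was 1006, 1098 and 599 reads per 1000000 at the reference and 915, 975 and 464 late (log2 -0.22 ± 0.11; edgeR, adjusted p = 0.192). HXK2, a hexokinase of glycolysis, had a similar course, with a median tail from 22.0 to 54.0 in A, from 24.0 to 22.0 in B and from 23.0 to 55.0 in C. SSC1, the mitochondrial Hsp70, had 45.6, 44.2 and 79.6 adenosines of upper tail at the reference and 90.2, 73.4 and 97.3 late. In replicate C, ERG11, HXK2 and SSC1 had longer upper tails at the reference than in A and B.

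GAS1, a cell wall glucanosyltransferase, had an upper tail of 43.6, 46.6 and 60.4 adenosines at the reference and 97.2, 58.8 and 89.5 late, while its median tail was 24.0, 26.0 and 21.0 and then 27.0, 23.0 and 24.0. The median moved by at most 3 adenosines in any replicate, and the upper tail of replicate B changed least. RPL36A had 26.4, 27.0 and 23.2 adenosines at the reference and 23.2, 26.2 and 24.3 late, a difference of -0.970 ± 1.48 (SE; limma, adjusted p = 0.678), within the spread of the replicates. PAB1, which encodes the poly(A)-binding protein, stood at 38.9, 41.3 and 33.4 and then 34.0, 39.1 and 36.2 adenosines. HSP104, a disaggregase induced by heat, had 45.6, 59.5 and 112 at the reference and 112, 77.8 and 90.8 late, longer in A and B and shorter in C. RPL18B went from 40.4, 46.9 and 79.3 to 84.9, 52.1 and 101 adenosines, with each replicate longer late (adjusted p = 0.215, limma).

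**Figure D3:**
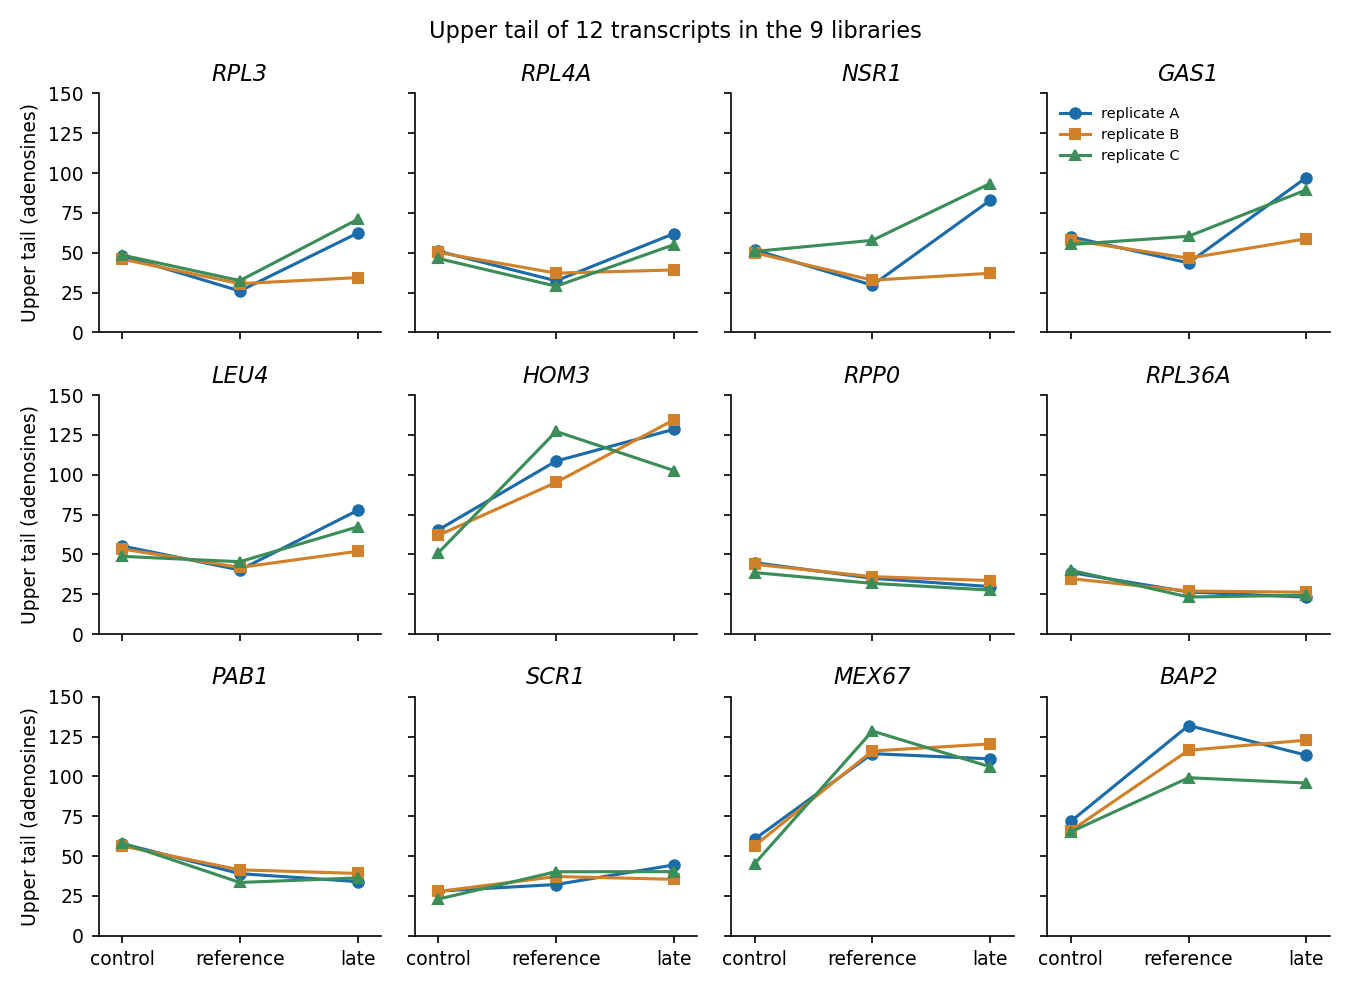
Upper tail (mean of the 75th to 95th percentile, adenosines) of 12 transcripts at 0 min, at the reference and late, with one line per replicate. RPL3, RPL4A, NSR1, GAS1 and LEU4 are longer late than at the reference in all 3 replicates, RPP0 is shorter in all 3, and MEX67 and BAP2 are near 100 adenosines or above at both later stages.

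Against the library before the reference (14 min in A, 12 min in B, 8 min in C), some transcripts passed the test. This comparison shares its late libraries with the one above. Of 1518 transcripts tested, 134 (8.83%) rose and 1 (0.0659%), MEX67, fell, by 32.1 ± 8.02 adenosines (SE; limma, adjusted p = 0.0349), from 143, 133 and 158 to 111, 120.4 and 106. The largest rise was in ARG5,6, which encodes enzymes of arginine synthesis, from 46.0, 37.0 and 41.0 adenosines to 127, 98.5 and 115, by 72.1 ± 8.52 (adjusted p = 0.00222, limma). HOM3, aspartate kinase, rose by 59.6 ± 6.10 adenosines (adjusted p = 0.00168, limma), from 75.7, 72.0 and 39.1 to 129, 134 and 103. For both genes every late value was above every value of the library before the reference. At the reference HOM3 already stood at 109, 95.2 and 127 adenosines, in C above its late value. In library fraction, 30 of the 1518 transcripts (1.98%) rose and 317 (20.9%) fell over this longer interval (edgeR, Benjamini-Hochberg at 0.05).

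Other members of the largest rises were HCA4, a nucleolar helicase, from 34.0, 28.6 and 47.4 to 109, 77.8 and 138 adenosines, and COT1, a vacuolar cobalt and zinc transporter, from 37.8, 38.4 and 46.7 to 122, 61.1 and 111. HCA4 had 10 to 18 reads late, so that its upper quantiles rest on few molecules. By list, against 8.83% of all 1518, 5 of 10 tested histone mRNAs rose, 8 of 40 in ribosome biogenesis, 9 of 45 in amino acid synthesis, 6 of 29 in ergosterol and fatty acid synthesis, 4 of 13 in methionine and sulfur assimilation and 4 of 21 translation initiation factors. Their list medians were 22.1, 16.1, 1.25, -2.05, 2.32 and -0.5 adenosines, against -2.00 over all 1518. HTB2, histone H2B, rose from 47.5, 46.4 and 58.6 to 94.3, 69.8 and 82.8 adenosines (adjusted p = 0.0121, limma), and CYS4, cystathionine beta-synthase, from 34.8, 36.2 and 58.3 to 91.2, 76.2 and 92.2 (adjusted p = 0.00537, limma). LEU4, the first enzyme of leucine synthesis and named after its values were seen, rose from 43.3, 40.6 and 52.2 to 77.6, 52.0 and 67.2 adenosines (adjusted p = 0.0473, limma).

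Late tails were also set against those at 0 min. Of 1634 transcripts tested late against 0 min, 665 (40.7%) fell and 275 (16.8%) rose, with a median difference of -10.4 adenosines (limma, Benjamini-Hochberg at 0.05). Without replicate A 242 fell and 149 rose, and for the 95th percentile alone the median difference was -1.33 adenosines. The largest fall was in MAK5, a nucleolar helicase, from 59.0, 50.6 and 61.2 adenosines at 0 min to 15.0, 25.6 and 20.2 late, by 36.7 ± 8.45 (adjusted p = 0.00811). SAC1, a phosphoinositide phosphatase, fell by 31.3 ± 6.42 adenosines (adjusted p = 0.00545, limma), from 55.7, 45.2 and 56.3 to 21.2, 27.2 and 14.9. KEM1, the file's name for the exonuclease Xrn1, fell from 54.8, 58.8 and 68.3 to 22.2, 34.0 and 32.1 (adjusted p = 0.00697, limma). In each of them all late values lay below all control values.

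The largest rise over the control was in REF2, a component of the 3′ end formation machinery, from 54.8, 58.5 and 48.2 adenosines to 116, 143 and 116, by 71.0 ± 9.56 (adjusted p = 0.00295, limma). VID27 rose from 56.3, 56.1 and 57.6 to 144, 101 and 125, and ALK1, a haspin family kinase, from 59.7, 64.1 and 57.3 to 133, 118 and 129. RSC9, a subunit of the RSC chromatin remodeler, rose from 59.4, 47.4 and 35.0 to 105, 131 and 99.2. Their late libraries held 11 to 33 reads each, and every late value exceeded every control value. By list, against 40.7% that fell and 16.8% that rose of all 1634, 68 of 74 large subunit, 52 of 55 small subunit and 5 of 5 stalk mRNAs fell and 0 rose. Of 10 histone mRNAs 6 rose and 1 fell, of 8 nitrogen catabolite repression mRNAs 6 rose and 0 fell, and of 23 cell wall mRNAs 9 rose and 7 fell. ERG11 rose by 32.3 adenosines and SSC1 by 28.2 (adjusted p = 0.00472 and 0.00381, limma), and GAS1 and HXK2 rose by 24.1 and 21.7 (adjusted p = 0.0136 and 0.00715). PAB1 fell by 21.0 adenosines (adjusted p = 0.00395, limma).

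The library fraction gave calls between the reference and late. Of 1160 transcripts, 14 (1.21%) rose and 36 (3.1%) fell (edgeR quasi-likelihood test on counts scaled by library totals, Benjamini-Hochberg at 0.05), with a median of -0.28 on the log2 scale. With TMM factors in the same test the median was -0.05, and 12 rose and 3 fell. DESeq2, which changes both the scaling and the test, had a median of 0.01, with 120 that rose and 36 that fell. Without the replicate block 0 were called in either direction, and all 50 kept their direction. Without replicate A the calls were 1 and 1, without replicate B 66 and 457, and without replicate C 27 and 64, and the direction of all 50 was kept there too. The adjusted p-values crowded under the threshold: 320 transcripts were under 0.10, and among mRNAs alone 0 were called, with a lowest adjusted p of 0.0545.

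The transcripts that rose fell into 3 kinds by class and tail. The 7 that are not mRNA comprised SCR1, RPR1 and 5 overlapping features of the rDNA repeat (RDN25-1, RDN25-2, RDN37-1 and RDN37-2), which share sequence and count as a single signal. SCR1 is the RNA of the signal recognition particle and RPR1 that of RNase P, both made by RNA polymerase III, whose products carry no pA-tail in their mature form. The last 30 bases of SCR1, RPR1 and RDN25-1 are shown because a read in these libraries needs adenosines at its 3′ end. They were read from the RefSeq R64 genome at V:442479-442508 (plus strand), V:117667-117696 (minus strand) and XII:451786-451815 (minus strand), and capitals mark the longest run of A:
SCR1: gggatggagtgtgtcctgAAccatattttt
RPR1: cccgAtaccgattactgctgctgttccagc
RDN25-1: ctgagattAAgcctttgttgtctgatttgt
No run of A at these ends was longer than 2 bases, and the longest run anywhere in the transcript was 3 bases in SCR1 and RPR1 and 5 in RDN25-1.

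SCR1 had 41.5, 25.3 and 198 reads per 1000000 at the reference and 440.5, 124 and 1531 late in A, B and C. It was higher late in every replicate, by 10.6, 4.90 and 7.72 times, and rose by 2.89 ± 0.22 on the log2 scale (SE; edgeR, adjusted p = 0.00386), the largest rise of the 1160. At 0 min it held 1.37, 8.93 and 10.7 reads per 1000000, from 3, 10 and 5 reads. Its upper tail was 32.1, 37.1 and 40.1 adenosines at the reference and 44.4, 35.4 and 40.2 late. RPR1 rose from 20.8, 10.2 and 45.5 reads per 1000000 to 89.6, 29.5 and 227 (log2 1.98 ± 0.26, SE; edgeR, adjusted p = 0.0182). RDN25-1 rose from 208, 157 and 471 to 709, 347 and 1299 (log2 1.46 ± 0.16; adjusted p = 0.0130, edgeR). Across the 7 features the upper tail was 25.5 to 40.1 adenosines at the reference and 29.3 to 49.4 late, and for all of them replicate C had the highest late fraction.

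The next kind was mRNA with a long tail already at the reference: MEX67, DIP5, BAP2, DSE2 and SCW11, with upper tails of 93.1 to 133 adenosines at the reference and 89.3 to 130.4 late, against 45.2 to 80.6 at 0 min. DIP5, an acidic amino acid permease, had 113, 172 and 47.0 reads per 1000000 at 0 min and 22.6, 24.8 and 57.9 at the reference. Late it had 161, 63.1 and 117, with all late values above all reference values but below 0 min in B. It rose by 1.79 ± 0.36 on the log2 scale (SE; edgeR, adjusted p = 0.0473). BAP2, a permease of branched-chain amino acids, had 292, 359 and 246 at 0 min, 43.4, 51.2 and 103 at the reference and 250.3, 118 and 247 late, and rose by 1.68 ± 0.29 (adjusted p = 0.0442, edgeR). In A and C its late level was close to that at 0 min. DSE2 and SCW11 encode daughter cell proteins that act on the cell wall at separation. They rose by 1.02 ± 0.20 and 0.94 ± 0.18 (adjusted p = 0.0473 for both, edgeR). DSE2 had 224, 380 and 98.3 reads per 1000000 at 0 min and 304, 217 and 159 late, so that B stayed below 0 min. SCW11 was above its 0 min level in every replicate.

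The remaining pair were abundant RPG mRNAs with short tails. RPP0 rose from 10453, 10506 and 14727 to 14799.7, 13104 and 19969.9 reads per 1000000, by 0.42 ± 0.07 on the log2 scale (adjusted p = 0.0442, edgeR). RPL41B rose from 1968, 2021 and 5766 to 2652, 2465 and 9337 (0.47 ± 0.10, adjusted p = 0.0473), and its copy RPL41A is identical to it over 98.7% of the coding bases, so that reads could be split between them. Their upper tails were 31.8 to 36.1 adenosines at the reference and 27.6 to 34.6 late.

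**Figure D4:**
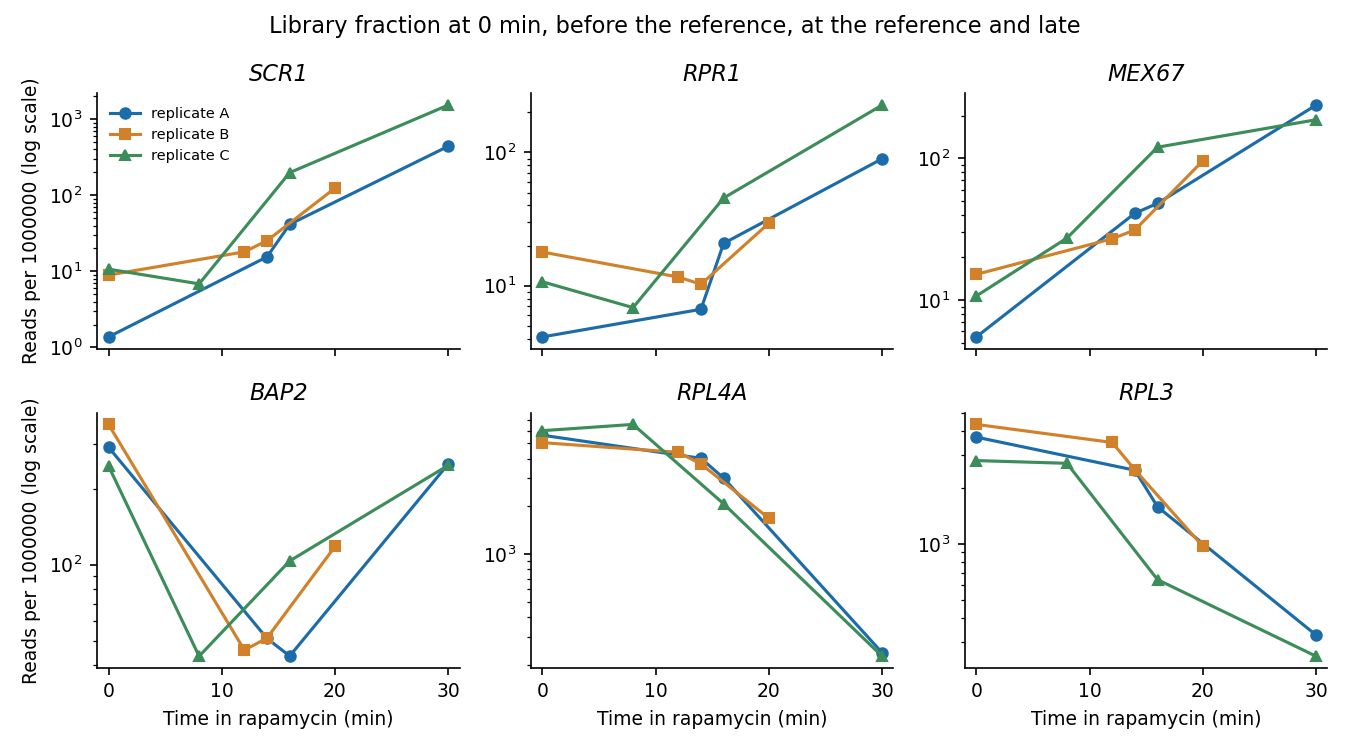
Library fraction (reads per 1000000, log scale) of SCR1, RPR1, MEX67, BAP2, RPL4A and RPL3 at 0 min, in the library before the reference, at the reference and late against time in rapamycin (min), with one line per replicate. Of the libraries plotted, SCR1, RPR1 and MEX67 are highest in the late one, BAP2 goes down and comes back up, and RPL4A and RPL3 are lowest in the late one.

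The 36 transcripts that fell were 35 mRNAs, 7 of them RPG mRNAs, and 1 CUT feature that the files list together with gene names. Their log2 changes were -3.21 to -0.61, with adjusted p from 0.0130 to 0.0473 (edgeR). Of the RPG mRNAs tested, 5 of 74 large subunit, 2 of 54 small subunit and 0 of 5 stalk mRNAs fell, against 3.1% of all 1160. The copies RPL4A and RPL4B, of the large subunit, fell most. RPL4B had 1136, 1485 and 566 reads per 1000000 at the reference and 41.4, 563 and 30.7 late, so that it was lower by 27.4 and 18.4 times in A and C and by 2.64 times in B. RPL4A went from 3014, 3699.5 and 2075 to 238, 1679.8 and 227 and fell by 2.63 ± 0.46 on the log2 scale (SE; edgeR, adjusted p = 0.0442). Their coding sequences are 98.9% identical. In both copies the late values lay below the reference values, and replicate B changed least.

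RPL3, which encodes a protein at the peptidyl transferase center, fell by 1.67 ± 0.20 on the log2 scale (adjusted p = 0.0130, edgeR), from 1578, 2485 and 645 to 326, 971 and 252 reads per 1000000. Meanwhile its upper tail went from 26.0, 30.6 and 32.5 adenosines to 62.3, 34.4 and 70.9, longer in every replicate, and its median tail from 16.0, 17.0 and 16.0 to 16.0, 17.0 and 25.0. Late it had 386, 1417 and 172 reads. RPL15A, RPL10, RPS27A and RPS24B also fell, by 2.01, 0.99, 1.39 and 0.80 on the log2 scale. Of the 74 large subunit mRNAs tested 5 fell and 1 rose, against 3.1% and 1.21% of all 1160. The list median was 0.03 against -0.28 over all transcripts.

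Factors of ribosome assembly that fell were NSR1, a nucleolin-like protein of the nucleolus, SQT1, the chaperone of Rpl10, and ARB1. Of 25 tested mRNAs of the ribosome biogenesis list 1 fell, against 3.1% of all 1160. NSR1 fell from 469.9, 527 and 112 reads per 1000000 to 122, 284 and 33.6 (log2 -1.46 ± 0.24; adjusted p = 0.0420, edgeR), and its upper tail went from 29.6, 32.8 and 57.8 adenosines to 82.8, 37.1 and 93.4. SQT1 went from 98.1, 111 and 57.9 to 34.7, 58.3 and 14.6 reads per 1000000, and its upper tail from 34.0, 25.5 and 28.0 to 87.4, 43.9 and 71.2 adenosines, above every reference value. The proteasome subunits PUP3 and PRE4 fell, 2 of 24 proteasome mRNAs tested against 3.1% of all 1160, and the list median was -0.78 on the log2 scale against -0.28 over all. The histone mRNAs HTA2 and HHF1 fell by 1.45 ± 0.30 and 1.29 ± 0.26, and each has a copy that is identical over 93.7% and 97.4% of the coding bases. STE3, the receptor of a-factor, fell from 72.6, 135 and 62.0 to 16.9, 66.5 and 17.6. Others were AKR1, a palmitoyl transferase, CRH1 of the cell wall, FAS1 of fatty acid synthase and PDR5, a drug exporter.

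Lower fractions and longer upper tails occurred in the same transcripts. Of the 36 that fell in fraction, 25 (69.4%) had a longer upper tail in all 3 replicates, against 22% of all 1160, and 1 had a shorter one in all 3. By replicate 31, 30 and 31 of them were longer, with median differences of 25.6, 3.86 and 20.6 adenosines in A, B and C. Over all 1160 transcripts the difference in upper tail and the log2 change of fraction had a Spearman rho of -0.373, across transcripts that share the same libraries. Not every transcript followed this: RPB8, a subunit of the RNA polymerases, fell in fraction by 1.08 ± 0.22, while its upper tail was 26.1, 28.7 and 30.4 adenosines at the reference and 24.6, 27.0 and 23.2 late.

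**Figure D5:**
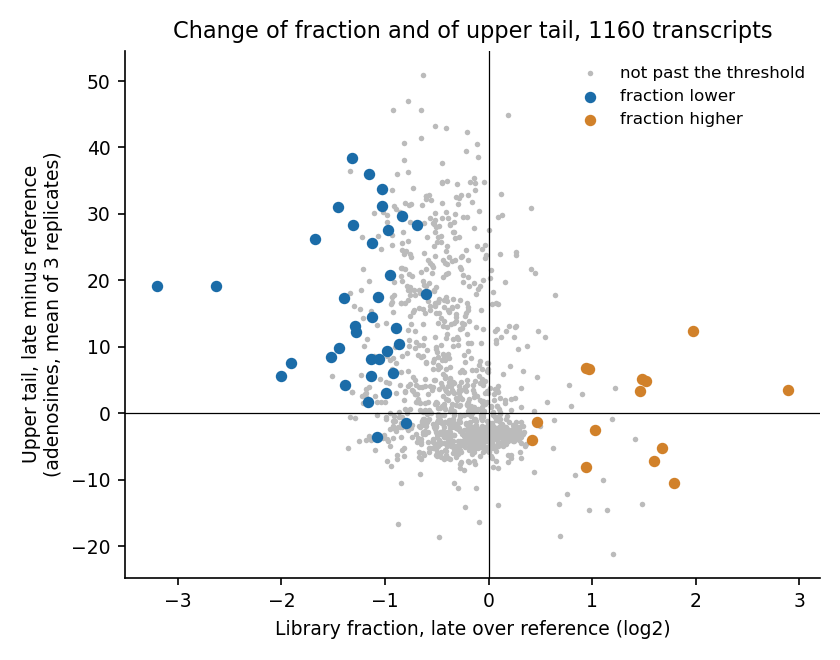
Mean difference in upper tail (late minus reference, adenosines) against log2 change of library fraction (late over reference) for 1160 transcripts. Of the 36 transcripts whose fraction fell (blue) all but RPB8 and RPS24B lie above a tail difference of 0, while the 14 that rose (orange) lie on both sides.

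By transcript class, rRNA features took more of the late libraries. They went from 0.394% to 0.779% of reads in A, from 0.302% to 0.509% in B and from 0.522% to 1.29% in C, higher in each replicate by 1.98, 1.68 and 2.47 times (mean difference 0.453 ± 0.286 percentage points, n = 3, SD; two-sided exact permutation of signs, p = 0.25). RPG mRNAs went from 41.5% to 43.9%, from 39.2% to 40.1% and from 48.9% to 52.2%. The mRNA class as a whole was lower in every replicate, by 0.592 ± 0.378 percentage points on average. XUTs, antisense transcripts degraded by Xrn1, went from 0.126% to 0.176% in A, from 0.144% to 0.141% in B and from 0.170% to 0.259% in C (p = 0.5, exact permutation of signs). CUTs were higher late in every replicate, by 1.41, 1.04 and 1.68 times. SUTs, another annotated noncoding class, were higher by 1.31, 1.005 and 1.63 times. The class of others, with SCR1 and RPR1, was higher by 2.55, 1.44 and 4.24 times (p = 0.25 each for CUTs, SUTs and others, exact permutation of signs). No class can pass 0.05 with 3 differences. RNA of other organisms was mixed into the libraries per the paper, and its part in the rRNA reads was not tested.

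Some genes of interest did not reach 10 reads in all 6 libraries. SSA4, an inducible Hsp70, had 7, 29 and 3 reads at the reference and 18, 23 and 8 late, so that it reached the minimum in replicate B alone. NAB2, a nuclear poly(A)-binding protein, had 35, 56 and 2 reads at the reference, but was tested against 0 min, where its upper tail rose from 66.9, 56.8 and 52.0 adenosines to 112, 79.7 and 86.7 late (adjusted p = 0.0121, limma). PAP1, the nuclear poly(A) polymerase, had 0 reads in 5 of the 6 libraries and 3 in the late library of replicate C. Between the reference and late, no tested transcript came from the lists of deadenylases, of nuclear exosome and TRAMP subunits or of cyclins.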

How the data were processed

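Native poly(A)+ RNA was sequenced by Nanopore direct RNA sequencing after oligo-dT capture. Per the paper, this yeast RNA was mixed for library preparation with cap-enriched or total RNA of other organisms, such as human and mouse. The authors basecalled reads with Guppy, aligned them with minimap2 2.17 and SAMtools 1.9 (sacCer3, per the submitters' processing notes) and estimated pA-tails with Nanopolish, and they deposited per transcript the read count and the mean and quantiles of tail length in adenosines. Of the series' columns, 221 per-sample columns were not used here.

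ENO2 was removed from counts and totals. A transcript needed at least 10 reads in each library compared. The tail length averaged over 5 percentiles (75th to 95th, in steps of 5) was tested with limma 3.58.1 (trend), and counts with edgeR 4.0.16 (quasi-likelihood, library totals as scaling), both in R 4.3.3 with the replicate as a block, since each replicate is a separate chase sampled over time per the labels. P-values were adjusted by Benjamini-Hochberg over all transcripts tested. Medians and class shares were tested with an exact two-sided sign-flip permutation test on 3 differences. Both fits were run on simulated data with the same dispersion (counts) or SD (tails) for every transcript, which the real libraries need not share. Alternatives changed the minimum, scaling (TMM, DESeq2 1.42.0), block, quantile, reference library and replicates. Sequences came from the RefSeq R64 genome. Python 3.11.15, numpy 2.4.6, pandas 2.3.3, scipy 1.17.1 and matplotlib 3.10.9 were used for the rest.

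Named transcripts were the 10 largest rises and 10 largest falls past the threshold with the same sign in all 3 replicates, up to 4 members per gene list with the largest change, and genes fixed for this chase. The other names, given to complete the set of called fractions or to illustrate a list, were chosen after their values were seen. Members and lists were chosen with earlier results of these data known. Intervals of counting error were not computed, and upper quantiles of a transcript near the minimum rest on a few molecules.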

Additional observations from a re-analysis of the deposited data

How the results depend on the processing

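The upper tail gave 0 calls against the reference under every alternative except the library before the reference (134 higher, 1 lower, 135 in all). Calls of library fraction (14 higher, 36 lower) became 12 and 3 (15 in all) with TMM, 120 and 36 (156) with DESeq2, 63 and 233 (296) with 10 reads in at least 3 of 6 libraries, 136 and 339 (475) with no filter, 30 and 317 (347) against the library before the reference, and 0 and 0 among mRNAs only. Without the replicate block, which pairs the libraries of a chase, 0 transcripts were called in either direction, with 159 at an unadjusted p under 0.05 and a lowest adjusted p of 0.330. Leaving out a replicate gave 1 to 66 higher and 1 to 457 lower calls (2 to 523 in all), fewest without A and most without B, the replicate with the shortest interval. The cause of these shifts was not tested.

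The 5th percentile tail, with 0 calls, gave 12 lower with at least 20 reads, 21 with at least 50, and 0 to 18 when a replicate was left out. Against the control, the calls (275 higher, 665 lower) had 149 higher with at least 20 reads, 56 higher of 518 with at least 50, 176 higher for the 75th percentile alone and 409 lower for the 95th alone, and 149 to 412 higher and 242 to 628 lower (391 to 1040 in all) when a replicate was left out. The median upper tail per library reversed to -1.475 adenosines with at least 50 reads and to -3.27 weighted by reads. The share of snRNA and snoRNA hosts (-0.0293 percentage points) ranged from -0.0647 to 0.0148 when a replicate was left out, reversing without C, and was 0.00504 against the library before the reference. For the named genes, 1435 of the alternative values kept their direction and side of the threshold, 155 were no longer past it, 70 newly passed it and 58 changed otherwise, and none reversed a call.

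Depth was lowest at the reference of replicate C, with 241941 reads, which set the 1160 transcripts tested. Fractions are relative, and with 3 replicates an exact test cannot go below p = 0.25.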

Other observations

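When a transcript needed 10 reads in only 3 of the 6 libraries, 63 of 2657 (2.37%) rose in fraction and 233 (8.77%) fell (edgeR quasi-likelihood test, Benjamini-Hochberg at 0.05). Of those that rose, 39 did not reach 10 reads in all 6 libraries, and 18 reached it in the late libraries alone, so that the filter itself favours rises among them. The following were named after their values were seen. MUP1, a methionine permease, had 34.9, 46.9 and 37.2 reads per 1000000 at the reference and 158, 83.6 and 123 late in replicates A, B and C (log2 1.52 ± 0.29, SE). NRD1, which acts in termination of short noncoding transcripts, had 30.2, 31.2 and 20.7 at the reference and 159, 57.6 and 52.7 late. ERG5, a desaturase of ergosterol synthesis, rose from 89.6, 99.1 and 99.2 to 441, 147 and 314 (adjusted p = 0.0117, edgeR), and among the 1160 its adjusted p was 0.0507. In the reference of replicate C, MUP1 had 9 reads and NRD1 5, so that both met this filter only with late libraries counted. No p-value is given for these genes, and their tails there rest on these reads. At 0 min MUP1 had 235, 235 and 135 reads per 1000000, above its late level in every replicate. ERG5 had 368, 363 and 197 at 0 min, above its late level in B alone. NRD1 had 60.4, 37.5 and 17.1 at 0 min, below its late level in every replicate. All late values of ERG5 lay above all its reference values. The upper tails of MUP1, NRD1 and ERG5 were 99.9 to 129 adenosines at the reference and 89.6 to 110.1 late, against 57.8 to 80.6 at 0 min.

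ENO1, whose close copy ENO2 was dropped, had 36375, 58122 and 215 reads per 1000000 at the reference and 8466, 51965 and 109.7 late. Before its removal ENO2 took up to 27.9% of reads in A and B and 0% in C, and the part of ENO2-derived reads in the ENO1 level was not tested.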
